A study of Mus musculus with 29 samples.

Results

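The cyclic nucleotide phosphodiesterases described here are Pde10a and 9 relatives, Pde1a, Pde1b, Pde1c, Pde2a, Pde4b, Pde4d, Pde7b, Pde8b and Pde9a, measured in the caudate nucleus of mice. They are a listed set of genes, not picked by a threshold, and each was read from the probe set that carries its symbol alone, taking the one with the highest mean level where there were several. All 10 were found, among 19938 genes with such a probe set. Pde4d had 3 probe sets and the others 1 each. No filter on low values was used, so every member was tested.

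One genotype was HdhQ150, mice that carry an expanded CAG repeat knocked into the mouse Huntington's disease gene, and the other was wild type. Both were of the mixed strain 129/Ola x C57BL6/J, with no treatment listed. HdhQ150 groups held 5 mice at 6 months, 6 at 12 months and 4 at 18 months, and wild-type (WT) groups held 5, 5 and 4. Each mouse gave 1 array, and each age is a different set of animals. Of the 29 mice, 23 were labelled female and 6 male, and both 18-month groups were all female. The labels do not give the zygosity of the HdhQ150 mice.

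Phosphodiesterases break down cAMP and cGMP, the messengers that carry dopamine, adenosine and nitric oxide signals inside neurons. The families differ in which of the messengers they accept and in what switches them on. Striatal projection neurons, the cells lost or impaired early in Huntington's disease, are known for very high amounts of PDE10A, which accepts both messengers and lies downstream of dopamine receptors, and of the calcium and calmodulin activated enzyme PDE1B.

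Promoter sequence is shown for Pde10a, Pde1b and Pde7b, because these are the members whose levels moved together in the results that follow. The windows come from RefSeq on mouse build GRCm38.p6, written 5′ to 3′ on the gene's strand. Each runs from 250 bases before a transcript start to 50 bases after it. The 2 Pde10a windows lie at chr17:8801495-8801794 and chr17:8849735-8850034 (+ strand). The first Pde1b window lies at chr15:103502784-103503083 (+ strand), and the Pde7b window at chr10:20548279-20548578 (- strand). Capitals mark a GC box (GGGCGG) on either strand.
Pde10a first start: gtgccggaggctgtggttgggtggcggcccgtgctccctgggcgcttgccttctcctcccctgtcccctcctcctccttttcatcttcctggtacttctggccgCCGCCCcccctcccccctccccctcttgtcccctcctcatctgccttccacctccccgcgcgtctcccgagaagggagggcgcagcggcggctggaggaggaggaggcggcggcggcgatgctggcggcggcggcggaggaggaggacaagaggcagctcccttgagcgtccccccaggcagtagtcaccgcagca
Pde10a second start: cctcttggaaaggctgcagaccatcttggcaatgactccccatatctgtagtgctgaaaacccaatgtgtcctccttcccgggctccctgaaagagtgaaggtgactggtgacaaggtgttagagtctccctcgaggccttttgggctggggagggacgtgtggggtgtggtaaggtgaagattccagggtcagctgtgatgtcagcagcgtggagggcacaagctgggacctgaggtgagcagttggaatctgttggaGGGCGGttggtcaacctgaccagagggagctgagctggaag
Pde1b first start: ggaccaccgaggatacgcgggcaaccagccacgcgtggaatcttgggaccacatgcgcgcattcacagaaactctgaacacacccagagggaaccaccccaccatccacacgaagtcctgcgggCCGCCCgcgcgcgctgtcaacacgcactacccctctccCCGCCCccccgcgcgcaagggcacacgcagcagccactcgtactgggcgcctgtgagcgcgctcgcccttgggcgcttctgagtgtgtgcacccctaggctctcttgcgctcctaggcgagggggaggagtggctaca
Pde7b start: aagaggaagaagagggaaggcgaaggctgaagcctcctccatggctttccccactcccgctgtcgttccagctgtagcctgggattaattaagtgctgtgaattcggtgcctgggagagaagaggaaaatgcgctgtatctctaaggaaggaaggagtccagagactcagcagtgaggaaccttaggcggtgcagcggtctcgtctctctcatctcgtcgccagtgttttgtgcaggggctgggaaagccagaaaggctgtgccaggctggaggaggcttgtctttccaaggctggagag

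The palindromic cAMP response element (TGACGTCA) occurred in 0 of the 28 windows available for 9 members, against 1.79% of all 32851 windows in the table. Its shorter core (TGACG, either strand, which the palindrome also contains) occurred in 4 member windows, 1 each of Pde1a, Pde2a, Pde4b and Pde8b, against 20.8% of all windows. None of the windows of Pde10a, Pde1b or Pde7b held this core. The GC box search was added after those results were known. It matched 6 of the 28 member windows, including both of Pde10a and the first of Pde1b but not that of Pde7b, against 35.7% of all windows. The first Pde10a window was 71.3% G and C, the second 56.7%, the first Pde1b window 67.0% and the Pde7b window 55.7%, beside a median of 52.7% over all windows. The other Pde1b windows, not shown, were 44.0% and 51.0% G and C and held no GC box. A match describes the letters in the window and nothing more.

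All levels are deposited log2 values, with array medians between 6.91 and 7.05. Htt, the targeted gene, was lower in HdhQ150 mice: its level lay between 8.50 and 8.99 in the HdhQ150 mice and between 8.87 and 9.20 in WT mice, and the limma adjusted p was 0.00457 at 6 months, 0.000122 at 12 months and 0.0523 at 18 months. Of the arrays, 2 stand apart. HdhQ150 mouse 1023 at 6 months is labelled female but had Xist at 5.95 and the Y-linked Eif2s3y at 8.30, the pattern of the males. Mouse WT-454 at 12 months correlated with its group at a mean r of 0.959, against 0.982 to 0.986 for the other 4. The fits and correlations of the members were also run without both mice.

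Pde10a was lower in HdhQ150 mice than in WT mice at every age. At 6 months its level was 11.32, 11.13, 11.39, 10.98 and 11.51 in the 5 HdhQ150 mice, against 11.62, 11.71, 11.54, 11.59 and 11.58 in the 5 WT mice. At 12 months it ran between 11.49 and 11.71 with a median of 11.61 in 6 HdhQ150 mice, against 11.96, 11.96, 12.23, 12.18 and 12.15 in WT mice. At 18 months it was 10.72, 10.73, 11.09 and 10.86 in HdhQ150 mice, against 11.52, 11.37, 11.50 and 11.43 in WT mice. Every HdhQ150 mouse lay below every WT mouse of its own age. Non-overlapping and lower groups were found for 1.35% of all genes at 6 months, 0.908% at 12 months and 1.5% at 18 months, and for 11 genes (0.0552%) at all 3 ages together.

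The limma difference in Pde10a, HdhQ150 minus WT, was -0.34 ± 0.0824 (SE) at 6 months, with an adjusted p of 0.119. It was -0.49 ± 0.0784 at 12 months (adjusted p 0.000659), and -0.61 ± 0.0911 at 18 months (adjusted p 0.000814). Averaged over the ages it was -0.48 ± 0.0483, a 1.40-fold lower level (adjusted p 1.9e-07), with the 8th smallest p of all genes. Pde10a therefore passed at 12 and 18 months and over all ages. At 6 months the difference was -0.40 and passed (adjusted p 0.0204) without mouse 1023, the HdhQ150 mouse nearest the WT mice. Leaving out each mouse in turn, it ran from -0.40 to -0.27, with adjusted p from 0.0204 to 0.337. Only the omission of mouse 1023 passed. At 18 months a fit of those 2 groups alone gave the same -0.61 with an adjusted p of 0.0567.

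**Figure D1:**
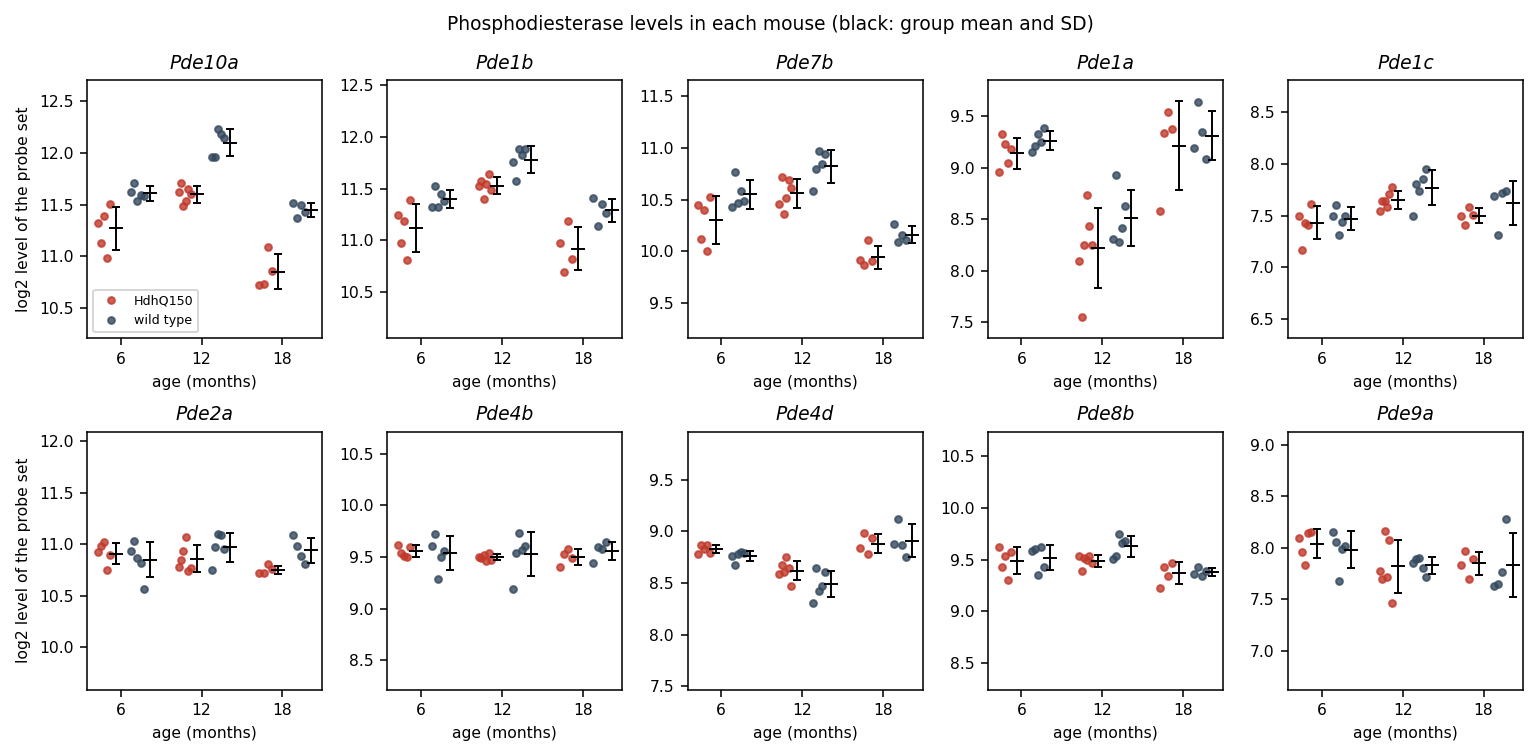
Level of each member (log2 value of its probe set) in every mouse by age in months, HdhQ150 mice in red to the left of WT mice in dark blue, with black marks for each group's mean and SD. Each panel spans the same height in log2 units. Pde10a shows separate groups at all 3 ages, with HdhQ150 means of 11.27, 11.60 and 10.85 against WT means of 11.61, 12.10 and 11.45, while most relatives overlap.

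The size of the Pde10a difference grew in number with age, but the growth was not called. The genotype difference at 18 months minus that at 6 months was -0.26, with a 95% interval of -0.51 to -0.01, an unadjusted p of 0.0405 and an adjusted p of 0.61. That from 6 to 12 months was -0.15 and that from 12 to 18 months was -0.11. None of the 10 members passed in any of these 3 tests of change. Over all genes, limma called 1 gene for 6 to 12 months (0.00502%, lower) and 0 genes for the other intervals, where an unadjusted p under 0.05 was reached by 230 genes higher and 182 lower (12 to 18 months) and by 993 higher and 636 lower (6 to 18 months).

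Pde1b and Pde7b followed in the same direction with smaller differences. Pde1b, the calmodulin-activated enzyme of projection neurons, had levels of 11.25, 10.97, 11.19, 10.81 and 11.39 at 6 months in HdhQ150 mice, against 11.32, 11.53, 11.32, 11.45 and 11.38 in WT mice. At 12 months it ran between 11.40 and 11.64 with a median of 11.54 in HdhQ150 mice, against 11.76, 11.57, 11.88, 11.83 and 11.88 in WT mice. At 18 months it was 10.97, 10.69, 11.19 and 10.82 in HdhQ150 mice, against 11.41, 11.14, 11.35 and 11.26 in WT mice. The groups overlapped at each age, by mouse 1023 at 6 months, WT-461 at 12 months and mouse 415 with WT-401 at 18 months. The limma differences were -0.28, -0.25 and -0.37 in order of age, with adjusted p of 0.179, 0.246 and 0.21. Averaged over the ages, Pde1b fell by 0.30 ± 0.0538 in HdhQ150 mice, 1.23-fold (adjusted p 0.00105). Without mouse 415, the highest HdhQ150 mouse at 18 months, the difference at that age was -0.46 and passed (adjusted p 0.0487). Leaving out each mouse in turn, it ran from -0.46 to -0.30, with limma adjusted p from 0.0487 to 0.708.

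Pde7b, a cAMP-specific enzyme, had levels of 10.45, 10.12, 10.40, 9.996 and 10.52 at 6 months in HdhQ150 mice, against 10.43, 10.77, 10.47, 10.58 and 10.49 in WT mice. At 12 months it ran between 10.36 and 10.72 with a median of 10.56 in HdhQ150 mice, against 10.58, 10.80, 10.97, 10.84 and 10.94 in WT mice. At 18 months it was 9.91, 9.87, 10.11 and 9.90 in HdhQ150 mice, against 10.26, 10.09, 10.16 and 10.11 in WT mice. The groups overlapped at each age, at 18 months by mouse 415, which stood above the other HdhQ150 mice. The differences were -0.26, -0.26 and -0.21 (limma adjusted p 0.199, 0.217 and 0.845), and the mean over ages was -0.24 ± 0.0537, 1.18-fold lower, which passed (adjusted p 0.00878). Without mice WT-454 and 1023, Pde1b at 6 months (-0.35, adjusted p 0.0318), Pde7b at 6 months (-0.31, adjusted p 0.0442) and Pde7b at 12 months (-0.33, adjusted p 0.0382) passed as well.

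Over the mean of the 3 ages, 3 of the 10 members fell (Pde10a, Pde1b and Pde7b) and 0 rose, beside 1.33% of all genes called lower and 1.73% called higher. At 12 months 1 member was called lower, beside 0.602% of all genes, and at 18 months 1, beside 0.0802%. At 6 months 0 members passed, beside 0.0201% of genes called lower and 0.00502% called higher, while 3 members were lower with an unadjusted p under 0.05, beside 7.37% of genes. The members' median difference was -0.09 over the mean of the ages, against 0.00 over all genes. In bulk tissue, fewer cells of a type and less RNA per cell cannot be told apart.

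**Figure D2:**
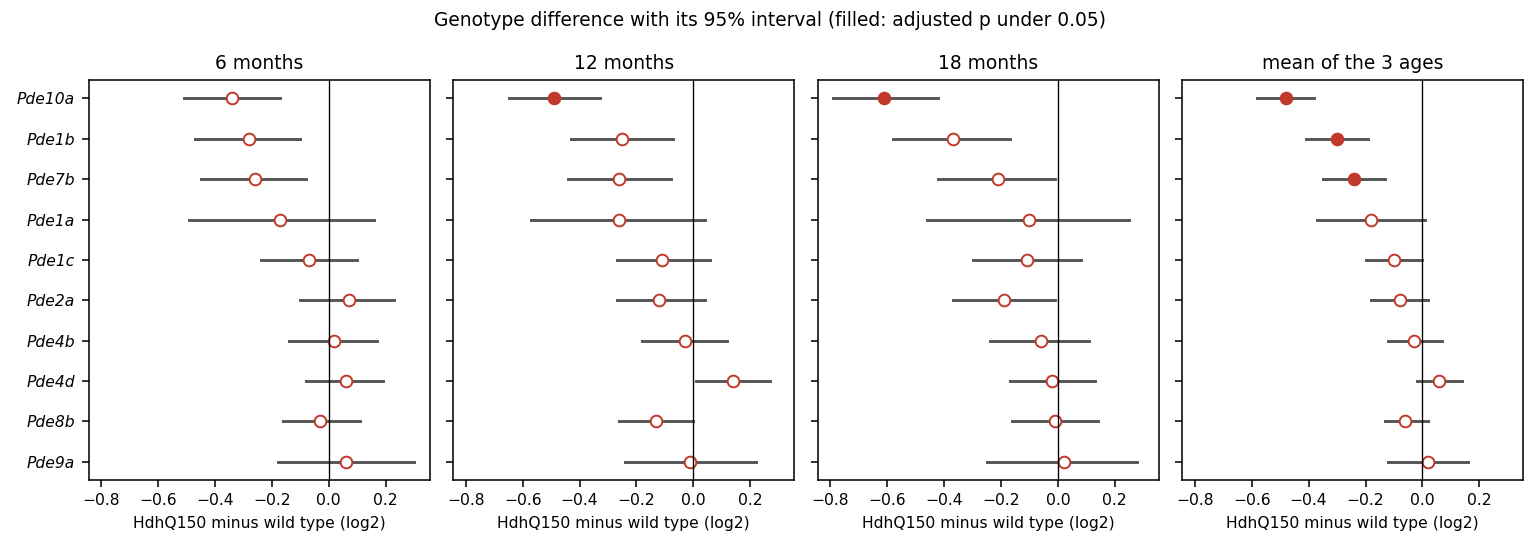
Difference HdhQ150 minus WT in log2 units with its 95% interval for each member, at 6, 12 and 18 months and for the mean of the ages; filled points had a limma adjusted p under 0.05. Pde10a is farthest below 0 in all 4 panels, from -0.34 at 6 months to -0.61 at 18 months, and Pde1b and Pde7b are filled only for the mean of the ages.

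The other calmodulin-activated members, Pde1a and Pde1c, did not pass in any genotype comparison. Pde1a, present in several forebrain neuron types, differed by -0.18 over the mean of the ages, with a 95% interval of -0.37 to 0.01 and a limma adjusted p of 0.391. Its spread was wide: at 12 months it ran between 7.55 and 8.73 with a median of 8.25 in HdhQ150 mice, against 8.31, 8.93, 8.28, 8.41 and 8.63 in WT mice. Pde1c differed by -0.10 (interval -0.20 to 0.00, adjusted p 0.377).

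Pde2a, the dual enzyme that cGMP stimulates, was at 10.72, 10.72, 10.81 and 10.76 in HdhQ150 mice of 18 months, against 11.09, 10.98, 10.89 and 10.81 in WT mice. These groups only just separated, mouse 415 and WT-431 being equal after rounding. The difference at 18 months was -0.19 (unadjusted p 0.0388, limma adjusted p 0.81), and at 6 months it was 0.07. The change between those ages was -0.26 (unadjusted p 0.0388, adjusted p 0.61).

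Among the cAMP-specific members, Pde4b and Pde4d belong to the rolipram-sensitive family, and Pde8b to a family that common inhibitors leave active. Pde4b differed by -0.03 over the mean of the ages (interval -0.12 to 0.07), and Pde8b by -0.06 (interval -0.13 to 0.02). Pde4d differed by 0.06 (interval -0.02 to 0.14), reaching 0.14 at 12 months with an unadjusted p of 0.0366 and a limma adjusted p of 0.499. Its other 2 probe sets disagreed in sign, with -0.16 and -0.05 at 6 months, so no direction is given for Pde4d between genotypes. Pde9a, the cGMP-specific member, differed by 0.02 (interval -0.12 to 0.16, adjusted p 0.943).

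Set against its relatives, the Pde10a difference was the larger at each age. It stood at -0.34, -0.49 and -0.61 at 6, 12 and 18 months, beside a median over the 9 relatives of -0.03, -0.12 and -0.10. Pde1b (-0.28, -0.25 and -0.37) and Pde7b (-0.26, -0.26 and -0.21) lay closer to it than that median. At 6 months the 95% interval of Pde10a (-0.51 to -0.17) overlapped those of Pde1b (-0.47 to -0.10) and Pde7b (-0.45 to -0.08). Pde10a minus the mean of the relatives, each centred on its mean over all mice, ran from -0.42 to -0.10 in HdhQ150 mice against 0.01 to 0.07 in WT mice at 6 months. At 12 months it ran from 0.02 to 0.33 in HdhQ150 mice against 0.36 to 0.61 in WT mice, and at 18 months from -0.68 to -0.41 against -0.16 to 0.00 in WT mice. The HdhQ150 and WT ranges of this measure were separate at each age, as were those of Pde10a alone, which enters it. No share over all genes was worked out for this measure. The members were chosen with results of these data known, so it carries no test.

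Levels also differed between ages, in both genotypes and in opposite directions for different members. Each age is a separate set of mice, and the array batch was not given. Age therefore cannot be told apart from any other difference between these sets. In HdhQ150 mice, 4 members (Pde10a, Pde1b, Pde1c and Pde7b) were higher at 12 than at 6 months and 2 (Pde1a and Pde4d) lower, beside 11.9% of all genes called higher and 11.2% lower. In WT mice the same 4 and the same 2 were called, beside 13.1% and 12.6%. With each array centred on its median, the WT split over all genes was 3259 higher and 2035 lower, against 2612 and 2509 without centring. From 12 to 18 months, Pde10a, Pde1b and Pde7b fell and Pde1a and Pde4d rose in HdhQ150 mice, beside 1.61% and 4.18% of all genes. The WT mice had the same calls and a fall of Pde8b, beside 2.07% lower and 3.81% higher.

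Pde10a in WT mice was 0.49 higher at 12 than at 6 months (limma adjusted p 0.000133) and 0.64 lower at 18 than at 12 months (log2 difference -0.64, adjusted p 3.22e-05). In HdhQ150 mice the same steps were 0.34 (adjusted p 0.00251) and -0.76 (adjusted p 5.23e-06), the 18-month step having the 4th smallest p of all genes. From 6 to 18 months Pde10a fell by 0.42 in HdhQ150 mice (adjusted p 0.00509), while in WT mice the difference was -0.16 (adjusted p 0.304). A fit of only the groups compared lost that HdhQ150 call (-0.45, adjusted p 0.0512). In order of mean level, the groups ran WT at 12 months, WT at 6 months, HdhQ150 at 12 months, WT at 18 months, HdhQ150 at 6 months and HdhQ150 at 18 months. WT mice at 6 months and HdhQ150 mice at 12 months overlapped, as did HdhQ150 mice at 12 months with WT mice at 18 months. WT mice at 18 months overlapped HdhQ150 mice at 6 months, and these overlapped HdhQ150 mice at 18 months.

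Pde1b moved by 0.41 and then -0.62 in HdhQ150 mice (limma adjusted p 0.00111 and 0.000119), and by 0.38 and then -0.50 in WT mice (adjusted p 0.00379 and 0.00137). Pde7b moved by 0.27 and then -0.64 in HdhQ150 mice (adjusted p 0.0251 and 9.13e-05), and by 0.26 and then -0.68 in WT mice (adjusted p 0.0353 and 5.12e-05). Pde7b was the only member called lower at 18 than at 6 months in both genotypes, with -0.37 in HdhQ150 mice (adjusted p 0.0259) and -0.42 in WT mice (adjusted p 0.013). Both calls were lost in fits of only the groups compared, at -0.40 in HdhQ150 mice (adjusted p 0.0599) and -0.36 in WT mice (adjusted p 0.0597). Over that interval 2.37% of genes were called lower and 2.28% higher in HdhQ150 mice, against 2.95% lower and 3.32% higher in WT mice.

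Pde1a went the other way. Its level was 8.96, 9.32, 9.23, 9.04 and 9.18 at 6 months in HdhQ150 mice and 8.58, 9.33, 9.54 and 9.37 at 18 months, with the lower 12-month values given above between them. In WT mice it was 9.15, 9.21, 9.32, 9.25 and 9.38 at 6 months and 9.19, 9.63, 9.34 and 9.08 at 18 months. The step at 12 months was -0.89 in HdhQ150 mice (limma adjusted p 0.000109) and -0.80 in WT mice (adjusted p 0.000633), and that at 18 months 0.91 and 0.75 (adjusted p 0.000686 and 0.00479). Pde4d had the same shape with smaller steps, -0.20 then 0.25 in HdhQ150 mice (adjusted p 0.0232 and 0.0289) and -0.28 then 0.41 in WT mice (adjusted p 0.0031 and 0.000427).

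Pde1c was 0.24 higher at 12 than at 6 months in HdhQ150 mice (limma adjusted p 0.0306) and 0.28 higher in WT mice (adjusted p 0.0166). Pde8b was 0.25 lower at 18 than at 12 months in WT mice (log2 difference -0.25, adjusted p 0.0259). Several of these calls lay near the threshold and were lost when 1 mouse was left out, while the sign stayed the same. Leaving out each mouse in turn, the 12-month step ran from 0.18 to 0.28 for Pde1c in HdhQ150 mice. That of Pde7b in WT mice ran from 0.23 to 0.34. The 12-month step of HdhQ150 mice was lost for Pde1c without any one of mice 453, 487, 526, 1003, 1016 or 1017, for Pde7b without 453, 487, 526, 1003 or 1017, and for Pde4d without 526 or 1003. That of WT mice was lost for Pde7b without WT-488, WT-508, WT-527, WT-1002, WT-1011, WT-1018 or WT-1020, and for Pde1c without WT-1011. The 18-month rise of Pde4d in HdhQ150 mice was lost without 412, 426, 462, 487 or 526, the fall of Pde8b in WT mice without WT-400, WT-414, WT-488, WT-508 or WT-527, and the 6-to-18-month fall of Pde7b in HdhQ150 mice without 383, 412, 426, 1001, 1016 or 1023. With only the groups compared the 12-month step of Pde7b was lost in HdhQ150 mice (adjusted p 0.0515) and in WT mice (adjusted p 0.0538), as was the 18-month rise of Pde4d in HdhQ150 mice (adjusted p 0.0687), also lost with median centring (adjusted p 0.0651). In labelled females alone, which keeps mouse 1023, the 12-month steps of HdhQ150 mice were lost for Pde1c (0.19), Pde4d (-0.20) and Pde7b (0.20). With mouse 1023 entered as male that of Pde1c was lost (0.22). The other Pde4d probe sets differed by 0.46 and 0.52 in WT mice at 18 minus 12 months and did not pass (adjusted p 0.168 and 0.183), and 1 of them by 0.48 in HdhQ150 mice (adjusted p 0.205).

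Markers of cortical excitatory neurons moved with age in these samples too. At 6 months their mean level over 9 genes ran from 8.13 to 8.75 in HdhQ150 mice and from 8.18 to 8.89 in WT mice. At 12 months it ran from 7.15 to 8.09 in HdhQ150 mice and from 7.48 to 8.27 in WT mice, and at 18 months from 8.21 to 8.97 in HdhQ150 mice and from 8.17 to 8.99 in WT mice. From 6 to 12 months 7 of the 9 fell in HdhQ150 mice and 6 of 9 in WT mice, beside 11.2% and 12.6% of all genes called lower. Between the genotypes 0 of 9 passed at any age. Other markers moved as well. The mean of 9 astrocyte markers ran from 9.30 to 9.44 at 6 months, 9.06 to 9.16 at 12 months and 9.29 to 9.49 at 18 months in HdhQ150 mice, and from 9.29 to 9.48, 8.98 to 9.22 and 9.27 to 9.42 at those ages in WT mice, so that the 12-month mice lay below the rest in both genotypes. From 6 to 12 months 5 of the 9 fell in HdhQ150 mice and 4 in WT mice, as did 2 and 3 of 6 thalamic neuron markers. The shares of all genes called lower were the same 11.2% and 12.6%. Over the same interval 5 of 8 oligodendrocyte markers rose in HdhQ150 mice and 2 in WT mice, beside 11.9% and 13.1% of all genes called higher. Beside those same shares, 9 of 18 projection neuron markers rose in HdhQ150 mice and 12 in WT mice. The cortical level alone was then added to the model, an alternative chosen after the data were seen. In HdhQ150 mice its 12-month range lay below those at 6 and 18 months, so the term shares much of the age difference. It also widened the SE of age steps, for Pde10a in HdhQ150 mice at 18 minus 12 months from 0.0858 to 0.11. A call lost with the term therefore cannot tell cortical content from age. The part of these shifts in the age results was not tested.

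With that term, the genotype differences in Pde10a were -0.35 at 6 months, -0.54 at 12 months (limma adjusted p 0.00013) and -0.62 at 18 months (adjusted p 0.000311). The mean over ages was -0.50 for Pde10a (adjusted p 5.87e-08), -0.33 for Pde1b (adjusted p 0.000122) and -0.26 for Pde7b (adjusted p 0.00305). Most age calls were lost with it. All 4 age steps of Pde1b lost their calls (adjusted p 0.299 and 0.145 in HdhQ150 mice, 0.126 and 0.137 in WT mice), as did every step of Pde1a, Pde1c, Pde4d and Pde8b that had passed. Pde7b lost both 12-month steps (adjusted p 0.601 and 0.322) and the 18-month step of HdhQ150 mice (-0.48, adjusted p 0.0861). The 12-month step of Pde1a was -0.43 in HdhQ150 mice and -0.44 in WT mice (adjusted p 0.148 and 0.0516), and that of Pde10a in HdhQ150 mice was 0.18 (adjusted p 0.333). Pde10a kept its fall from 12 to 18 months, at -0.59 in HdhQ150 mice (adjusted p 0.0149) and -0.51 in WT mice (adjusted p 0.00499), and its 12-month step in WT mice, at 0.37 (adjusted p 0.00946). Pde7b kept its 18-month fall in WT mice (-0.56, adjusted p 0.00757), and the falls from 6 to 18 months kept their calls for Pde10a in HdhQ150 mice and Pde7b in both genotypes. Pde9a passed with the term at 12 minus 6 months in HdhQ150 mice (-0.51, adjusted p 0.0305), and not without it (-0.22, adjusted p 0.159).

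**Figure D3:**
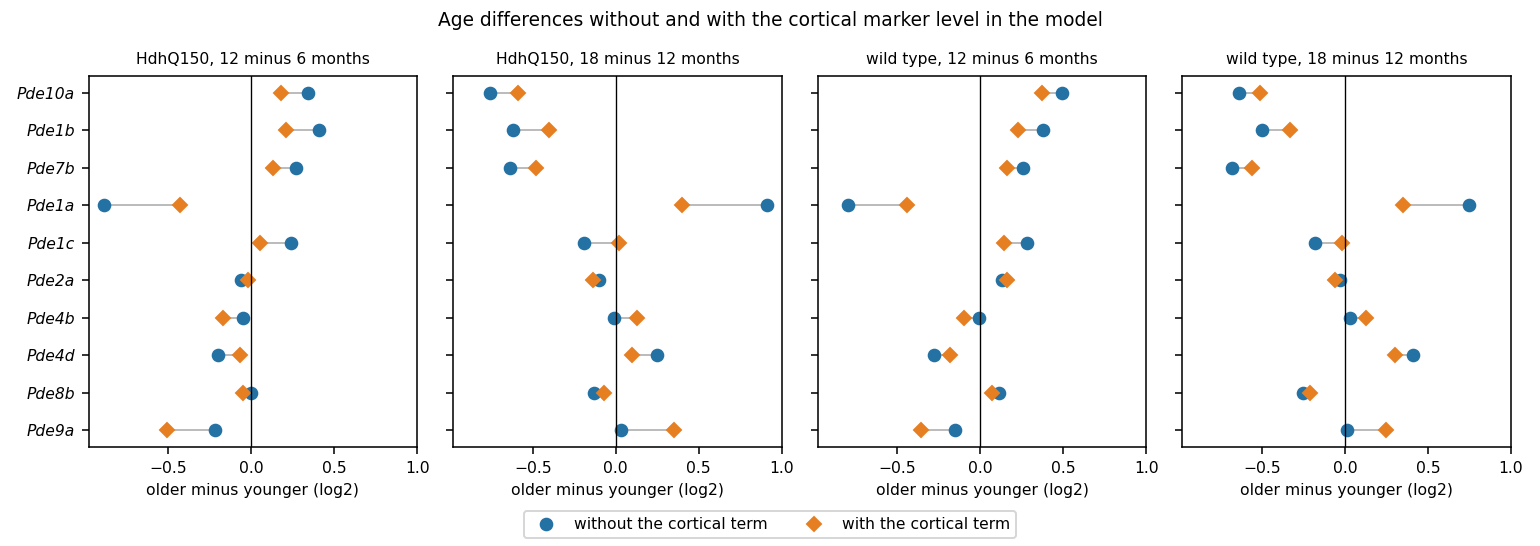
Age differences in log2 units (older minus younger) for each member in HdhQ150 mice (left pair of panels) and WT mice (right pair), from the model without the cortical marker level (blue circles) and with it (orange diamonds). The points of Pde1a move most, from -0.89 to -0.43 in the first panel, and the falls of Pde10a from 12 to 18 months stay at -0.59 and -0.51.

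Within groups, Pde1b and Pde7b varied with Pde10a from mouse to mouse. With each group's mean subtracted, r with Pde10a over 29 mice was 0.87 for Pde1b (rho 0.81) and 0.86 for Pde7b (rho 0.83), with a permutation p adjusted over 9 relatives of 4.5e-05 for each r. Their unadjusted p of 1e-05 is the smallest that 100000 permutations can give. Without the 2 mice farthest from the median of Pde10a, r was 0.80 for both. Pde1c had r of 0.55 (rho 0.58, adjusted permutation p 0.00929), and Pde4b had r of 0.47 (rho 0.51, adjusted permutation p 0.00828). Without mice WT-454 and 1023, the Pde1c r was 0.41 and lost its call (adjusted permutation p 0.0678).

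Pde8b had r of 0.53 with Pde10a (rho 0.49, adjusted permutation p 0.0355), which dropped to 0.39 without the 2 farthest mice and lost its call without any one of 9 mice (383, 1003, 1016, 1017, WT-454, WT-461, WT-488, WT-1004 and WT-1011). Pde2a (r 0.34), Pde4d (-0.30), Pde9a (-0.13) and Pde1a (-0.05) did not pass. Without WT-454, Pde4d reached -0.45 and passed (adjusted permutation p 0.0161), and Pde2a passed without mouse 462, 464 or 1023 (r 0.38, 0.42 and 0.39) and with median centring (0.44). Without both WT-454 and 1023, Pde8b was at 0.46 and did not pass (adjusted permutation p 0.0973), and Pde4d was at -0.46 and passed (adjusted permutation p 0.0285). With no group mean subtracted, so that group differences enter, Pde1a (-0.46), Pde2a (0.45) and Pde4d (-0.73) passed and Pde4b (0.16) did not.

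**Figure D4:**
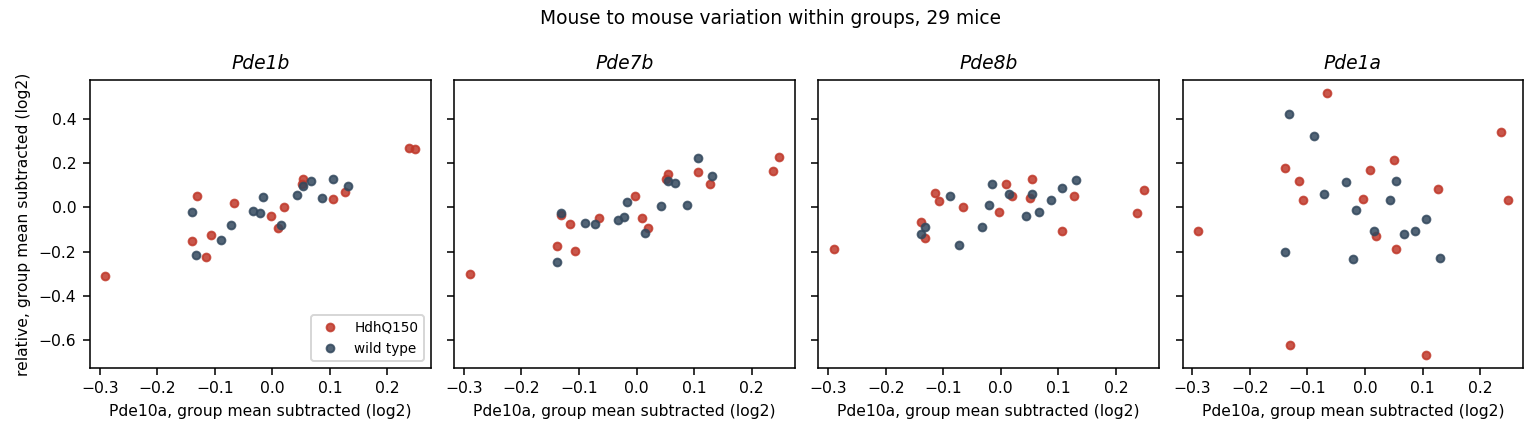
Levels of 4 relatives against Pde10a in each of 29 mice, both in log2 units after subtracting the mean of the mouse's own group (HdhQ150 red, WT dark blue). Pde1b and Pde7b rise with Pde10a along a line (r 0.87 and 0.86), Pde8b less closely (r 0.53), and Pde1a shows no such relation (r -0.05).

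Projection neuron markers varied with the same 3 members. The mean of 18 such markers had r of 0.90 with Pde10a (rho 0.87), 0.92 with Pde1b (rho 0.91) and 0.87 with Pde7b (rho 0.89), each with a permutation p of 6.67e-05 adjusted over 20 relations. Without the 2 mice farthest from the median of that mean, r was 0.84, 0.89 and 0.85. Pde1c had 0.52 (rho 0.55, adjusted permutation p 0.0222). The mean of the cortical markers had r of 0.63 with Pde1a (rho 0.62, adjusted permutation p 0.0083; 0.56 without the 2 farthest mice), -0.53 with Pde9a (rho -0.48, adjusted permutation p 0.0323) and -0.47 with Pde1b (rho -0.48, adjusted permutation p 0.04).

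The marker list itself was lower in HdhQ150 mice. Its mean level ran from 9.90 to 10.38 at 6 months in HdhQ150 mice against 10.22 to 10.50 in WT mice, from 10.27 to 10.47 at 12 months against 10.63 to 10.78 in WT mice, and from 9.63 to 10.05 at 18 months against 10.08 to 10.33 in WT mice. Over the mean of the ages 11 of 18 markers fell and 0 rose, beside 1.33% of all genes lower and 1.73% higher. Among them were Scn4b (-0.75), Gpr52 (-0.61), the enkephalin precursor Penk (-0.55), and the dopamine receptors Drd1 (-0.35) and Drd2 (-0.31). The part of this shift in the phosphodiesterase results was not tested.

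Apart from the members, the genes most like Pde10a in the same mouse-by-mouse measure, over 19938 genes and 29 mice, were Rgs9 (r 0.89), Zswim6 (0.88), Stk32a (0.87), Strn (0.87) and Rxrg (0.86). Among all genes Pde1b ranked 5 and Pde7b ranked 7. The same exclusion of members holds for the lists that follow. Pde1b was most like Rgs9 (0.95) and Drd1 (0.93), and Pde7b most like Cacna2d3 (0.90) and Kcnd2 (0.89). Pde1a was most like Ak5 and Asic2 (both 0.86), Pde4b like Pds5b (0.90) and Hsd17b10 (0.89), and Pde9a like Kcnip1 (0.85) and Fbxo10 (0.83). For Pde1c these were Zeb1 (0.79) and Diaph2 (0.78), for Pde2a Rnf169 (0.75) and Dgat2 (0.74), for Pde4d Adgre5 and Raph1 (both 0.76), and for Pde8b Hlcs and Sgip1 (both 0.77). These were picked as the highest of all genes and carry no test.

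The rest of the pathway was read over the mean of the ages, where 1.33% of all genes were called lower and 1.73% higher. Of 19 cyclases and their activators tested, 1 fell and 1 rose over the mean of the ages. Adcy5, the main adenylyl cyclase of striatal neurons, had differences of -0.26, -0.38 and -0.46 in order of age, passing at 12 months (limma adjusted p 0.0241), and a mean of -0.36 (adjusted p 8.76e-05). Npr2, a natriuretic peptide receptor that makes cGMP, was 0.16 higher (adjusted p 0.0297). Of the 14 other phosphodiesterases, 0 fell and 1 rose, Pde6d (0.12, adjusted p 0.0464), a small subunit that carries lipid-anchored proteins. Pde8a, close kin of Pde8b, had -0.21 and did not pass (adjusted p 0.122).

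Of 20 effectors of cAMP and cGMP (kinases, exchange factors, channels and kinase inhibitors), 1 passed, Pkig, an inhibitor of protein kinase A, at -0.14 (limma adjusted p 0.0416). Of 19 anchors and kinase targets, 5 fell and 0 rose over the mean of the ages. They were Rgs9, which shortens G protein signals (-0.45, adjusted p 0.000218), the kinase target Arpp19 (-0.43, adjusted p 0.00153), Ppp1r1b, which encodes DARPP-32 (-0.25, adjusted p 0.0101), its relative Ppp1r1a (-0.22, adjusted p 0.0115) and the anchor Akap9 (-0.21, adjusted p 0.0264). Adcy5, Rgs9 and Ppp1r1b also stand in the projection neuron list.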

How the data were processed

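Biotin-labelled total RNA from the caudate nucleus of 29 mice was hybridised to Affymetrix arrays. The values the authors deposited are on the log2 scale, and the submitters' processing notes name RMA and Affymetrix Expression Console; array design, slide and scan date were not given in the sources used here. Of 35556 probe sets, 21789 had 1 gene symbol, 1621 several and 12146 none in the platform table. The probe set with the highest mean was kept for each of 19938 genes.

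limma 3.58.1 (R 4.3.3) fitted 6 group means and labelled sex over all 29 arrays with a trended prior, two-sided, with Benjamini-Hochberg adjustment over all genes and a threshold of 0.05. Arrays are separate mice. Correlations used group-centred values and 100000 permutations within groups (Python 3.11.15, numpy 2.4.6). On simulated data over 19938 genes, the fit recovered 37.3% at 6 months, 38.8% at 12 months and 31.3% at 18 months of changes of 0.3, and 86.6%, 91% and 74.6% of changes of 0.5. It called 4, 6 and 15 unchanged genes at those ages. The simulation held 200 changed genes and independent normal noise, with no sex effect and no arrays that stand apart. Recovery in the real data may therefore differ.

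The members and lists were chosen with earlier results of these data known. The genes named were all members, Htt, the genes most alike, and of each pathway list those past the threshold or with the smallest p. Of the projection neuron markers that fell, only some were named. Promoter windows came from RefSeq (GRCm38.p6); protein sequences and Pde9a promoters were not analysed here. Alternatives changed the sex term, arrays, array weights, scaling, probe set choice, dim gene filter and prior, and left out each mouse.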

Additional observations from a re-analysis of the deposited data

Results flagged for a closer look

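Of 60 sets of values (10 members in 6 groups), 2 held a mouse far from the rest of its group, where chance flags about 1 in 20. Pde7b was at 10.11 in HdhQ150 mouse 415 at 18 months, while the other 3 lay between 9.87 and 9.91. Pde1c was at 7.31 in mouse WT-401 at 18 months, while the other 3 lay between 7.69 and 7.74.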

How the results depend on the processing

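No paired analysis was possible because mice of different groups share no replicate numbers. The falls of Pde10a, Pde1b and Pde7b over the mean of the ages kept their calls under every alternative run. Leaving out each mouse in turn, Pde10a ran from -0.51 to -0.46, Pde1b from -0.33 to -0.28 and Pde7b from -0.26 to -0.22. With array weights Pde10a (-0.36, adjusted p 0.00823), Pde1b (-0.32, 0.027) and Pde7b (-0.29, 0.0374) passed at 6 months, and Pde7b at 12 months (-0.31, 0.0402). Without mouse WT-454 and HdhQ150 mouse 1023, Pde10a passed at 6 months (-0.40, 0.00962).

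Counts of called genes moved more, given here as genes higher and genes lower. At 6 months (1 and 4) there was 1 gene lower in labelled females alone, which keeps mouse 1023. The genes lower were 2 with no sex term, with mouse 1023 as male, with median centring, with the brighter 50% of genes or with all probe sets. There were 5 higher with only the groups compared, 4 and 7 with the cortical level, 324 and 544 without WT-454 and 1023, and 541 and 789 with array weights. At 12 months (67 and 120) there were 24 and 79 with only the groups compared, 167 and 341 without both mice and 250 and 406 with weights. There were 40 higher with median centring and 36 higher in labelled females alone. At 18 months (11 and 16) there were 0 and 1 with only the groups compared, 19 higher without both mice or with weights, 9 lower with all probe sets and 10 lower with mouse 1023 as male. Over the mean (344 and 266) there were 751 and 893 without both mice, 681 and 657 with weights and 550 higher with the cortical level. Changes of the genotype difference gave 2 genes lower from 6 to 12 months without both mice (1 otherwise), and 4 and 2 from 6 to 18 months with weights (0 and 0 otherwise).

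Counts for the steps between ages are given in both directions together. In HdhQ150 mice, 12 minus 6 months (4599) gave 7098 with weights, 6919 with all probe sets, 766 with the cortical level and 2702 with the brighter 50%, of which 588 were higher and 2114 lower. The step 18 minus 12 (1154) gave 707 with only the groups compared, 1787 without both mice, 2171 with weights and 76 with the cortical level. The step 18 minus 6 (927) gave 598, 1646 and 2489 under the same first 3 settings and 1601 with all probe sets. In WT mice, 12 minus 6 (5121) gave 2434 in labelled females alone, 3408 without both mice and 2533 with the cortical level. The brighter 50% gave 2888, of which 579 were higher and 2309 lower. The step 18 minus 12 (1171) gave 2027 with weights and 321 with the cortical level. The step 18 minus 6 (1250) gave 708 in labelled females alone, 248 with only the groups compared and 2395 with weights. It gave 694 with the brighter 50% and 2375 with all probe sets.

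Leaving out 1 mouse gave counts of 1 to 94 higher and 2 to 94 lower at 6 months, 29 to 153 and 70 to 287 at 12 months, 6 to 18 and 8 to 30 at 18 months, and 226 to 558 and 197 to 635 for the mean. It gave 1 to 2 lower for the change from 6 to 12 months. For the age steps it gave 582 to 1789 for 18 minus 12 and 421 to 1438 for 18 minus 6 in HdhQ150 mice, and 3302 to 6521 for 12 minus 6, 696 to 1437 for 18 minus 12 and 490 to 2437 for 18 minus 6 in WT mice. Both counts of 94 arose without mouse 1023. Those of 153, 287, 18, 558 and 635 arose without WT-454, and the 30 lower without mouse 415. The smallest counts were 29 higher without mouse 464, 70 lower without 462, 6 higher without 426, 8 lower without WT-400 and 226 higher without 383.

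Members far from the threshold changed sign. In labelled females alone Pde1c (0.07) and Pde8b (0.05) did at 6 months and Pde9a (0.03) at 12 months. With array weights so did Pde4b (-0.01) and Pde9a (-0.01) at 6 months, Pde9a (0.00) at 12 months, and Pde1a (0.02) and Pde8b (0.02) at 18 months. The other Pde4d probe sets gave -0.16 and -0.05 at 6 months and 0.09 and 0.27 at 18 months. Of them, 1 gave -0.21 at 12 months and -0.09 for the mean. The average of all Pde4d probe sets, the kept one included, gave -0.05 at 6 and 0.11 at 18 months. With the cortical level Pde9a was 0.00 at 18 months and -0.02 for the mean. The r of Pde1a with Pde10a was 0.01 with median centring. Without single mice the sign also changed for Pde2a (-0.01 to 0.11), Pde4b (-0.06 to 0.06), Pde8b (-0.08 to 0.02) and Pde9a (-0.02 to 0.11) at 6 months, Pde4b (-0.14 to 0.02) and Pde9a (-0.09 to 0.06) at 12 months, Pde1a (-0.22 to 0.10), Pde4d (-0.07 to 0.05), Pde8b (-0.04 to 0.04) and Pde9a (-0.05 to 0.17) at 18 months, and the r of Pde1a (-0.21 to 0.06). The causes were not tested. The small number of arrays in each group limits precision.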
